A study of Mus musculus with 6 samples.

Results

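The genes described here are the cytosolic ribosomal protein genes of mouse microglia. They were taken from the deposited table as the known genes with symbols of the form Rpl or Rps and a number, with the suffixes a, x or l allowed, together with Rplp0, Rplp1, Rplp2 and Rpsa. The rule found 84 of the 38207 genes and loci in the table, 52 of the large subunit and 32 of the small subunit. It used names only and no measured value. Ribosomal proteins that carry other symbols, such as Fau and Rack1, fall outside it and are given separately.

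Each of the 6 libraries was made by nanopore sequencing of PCR-amplified cDNA from 30 pooled wild-type (WT) mice. The 3 sham libraries came from mice with sham surgery, and the 3 tMCAO libraries from mice with transient middle cerebral artery occlusion, a surgical model of ischemic stroke in which a main artery of the brain is blocked and then reopened. The labels name microglia of the brain as the cell type in both groups, whereas the extraction protocol refers to tissue, and neither states how long after surgery or by which method cells were taken. Nothing states which pools were prepared together, so the p-values reflect only how much the pools of a group differ, which may in part be technical.

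The ribosome is built from ribosomal RNA and a copy of nearly every ribosomal protein, so the cell has to supply these proteins in matched amounts. Their genes have short, strongly transcribed mRNAs, most of which begin with a run of pyrimidines called a 5′ terminal oligopyrimidine (TOP) tract. Through this tract, growth signalling by the kinase mTOR and the RNA-binding protein LARP1 controls the translation and storage of the mRNAs together. Microglia, the resident macrophages of the brain, take up such signals when they are activated after injury.

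Total counts were 2371235, 2522812 and 2614512 reads in sham and 2030550, 1855495 and 1877780 reads in tMCAO. No tMCAO library reached the total of any sham library. All 5 microglia markers were present in every library, and their summed level lay between 20912 and 22211 CPM (a gene's counts scaled to a common library total) in sham and between 20376 and 22677 CPM in tMCAO, with 1 of 5 (P2ry12) called lower. Choroid plexus markers summed to 8592 to 44469 CPM in sham, with the highest value in sham 2, and to 2265 to 9927 CPM in tMCAO, with none of the 4 called. Markers of red blood cells summed to 955 to 6040 CPM in sham and 215 to 380 CPM in tMCAO, with none of the 3 tested of 5 called, and Hba-a1 was at 0 in tMCAO 2. Astrocyte markers (2 of 4 tested lower), oligodendrocyte markers (1 of 4 lower) and neutrophil markers (1 of 4 lower) were also lower on average in tMCAO, whereas border macrophage and monocyte markers had 2 of 4 called higher each. Border macrophage markers summed to 112 to 141 CPM in sham and 192 to 266 CPM in tMCAO. The monocyte sums overlapped, at 77.6, 82.1 and 69.2 CPM in sham and 169, 71.1 and 64.4 CPM in tMCAO. Transcripts of the mitochondrial genome summed to 17887 to 33504 CPM in sham and 8299 to 10361 CPM in tMCAO, with 12 of 13 lower. Beside these counts, 8.96% of all genes and loci tested were called lower and 9.17% higher. Neuron markers summed to at most 6.5 CPM and markers of B and T cells to at most 9.12 CPM, with Ms4a1 at 0 in all 3 tMCAO libraries. In pooled RNA, fewer cells of a type and less RNA per cell cannot be told apart, and the part of these other transcripts in the ribosomal protein results was not tested.

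Ribosomal protein transcripts took up a smaller part of the libraries after tMCAO. Their summed counts were 14.7%, 13.2% and 15.3% of all counts in the sham libraries (14.4% ± 1.07, SD, n = 3) and 11.9%, 11.7% and 11.2% in the tMCAO libraries (11.6% ± 0.351, SD, n = 3). Every tMCAO library was below every sham library, and the lowest sham value was that of sham 2, the library with the most choroid plexus transcripts. The difference of the means was -2.83 percentage points. With 1 library left out it ran from -3.43 (without sham 2) to -2.38 (without sham 3). With the mitochondrial genome left out of the total it was -3.09. A sum over chosen genes was given no test.

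The share was lower for both subunits. The large subunit went from 8.60% ± 0.611 to 6.91% ± 0.219 of all counts and the small subunit from 5.82% ± 0.463 to 4.67% ± 0.133 (SD, n = 3 each). The ratio of large to small subunit counts was 1.47, 1.5 and 1.47 in sham and 1.49, 1.47 and 1.48 in tMCAO. The 2 sets of ratios overlapped, and the mean was 1.48 in both groups.

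**Figure D1:**
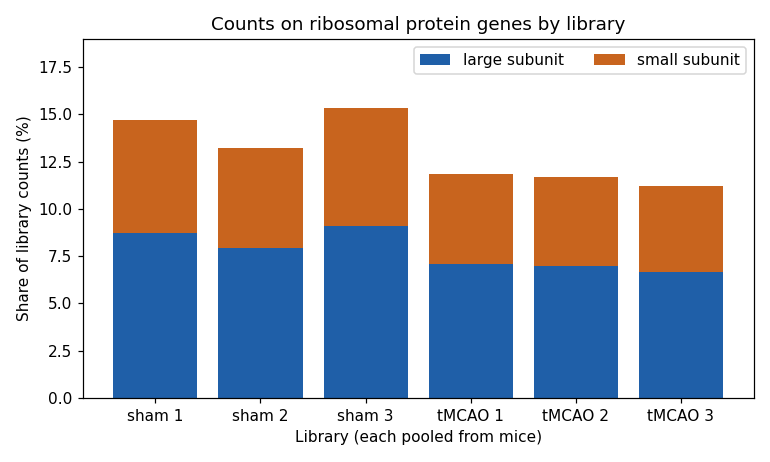
Share of all counts (%) held by ribosomal protein genes in each library, stacked by subunit, large below and small above. The sham bars end between 13.2% and 15.3% and the tMCAO bars between 11.2% and 11.9%.

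Of the 84 genes, 81 had enough counts to be tested. Called lower after tMCAO were 45 of them (55.6%), and called higher were 2 (2.47%), Rps29 and Rpl24, at an adjusted p under 0.05 in edgeR's quasi-likelihood test. Over all 13127 genes and loci tested, 8.96% were called lower and 9.17% higher. The median log2 fold change was -0.42 for the ribosomal protein genes, with quartiles of -0.59 and -0.16, against 0.00 over all tested. Of the 81 genes, 68 had a fold change below 0 and 13 above. In 51 genes (63.0%) all tMCAO values lay below all sham values, which held for 14.6% of all tested, and in 6 genes (7.41%) they lay above, which held for 23.3%. CPM and group overlap use library totals, whereas the fold changes also use the scaling of the test (TMM). With library totals only, the median over all tested was 0.11, so a small fold change can differ in sign from the CPM beside it.

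The decreases were mostly small. Among the 45 genes called lower the fold decrease ran from 1.32 to 2.66, with a median of 1.49. In the large subunit 29 of 49 tested genes were lower and 1 higher, with a median log2 fold change of -0.46. In the small subunit 16 of 32 were lower and 1 higher, with a median of -0.40. The number of genes called lower was 25 without sham 1, 27 without sham 3, 29 without tMCAO 2 and 33 without sham 2. All 45 kept their direction in each of the 18 alternative analyses, and 21 of them, among these Rps21, Rplp1, Rps12, Rpl30, Rps15, Rps24, Rpl39 and Rpl22, also kept their call in each.

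**Figure D2:**
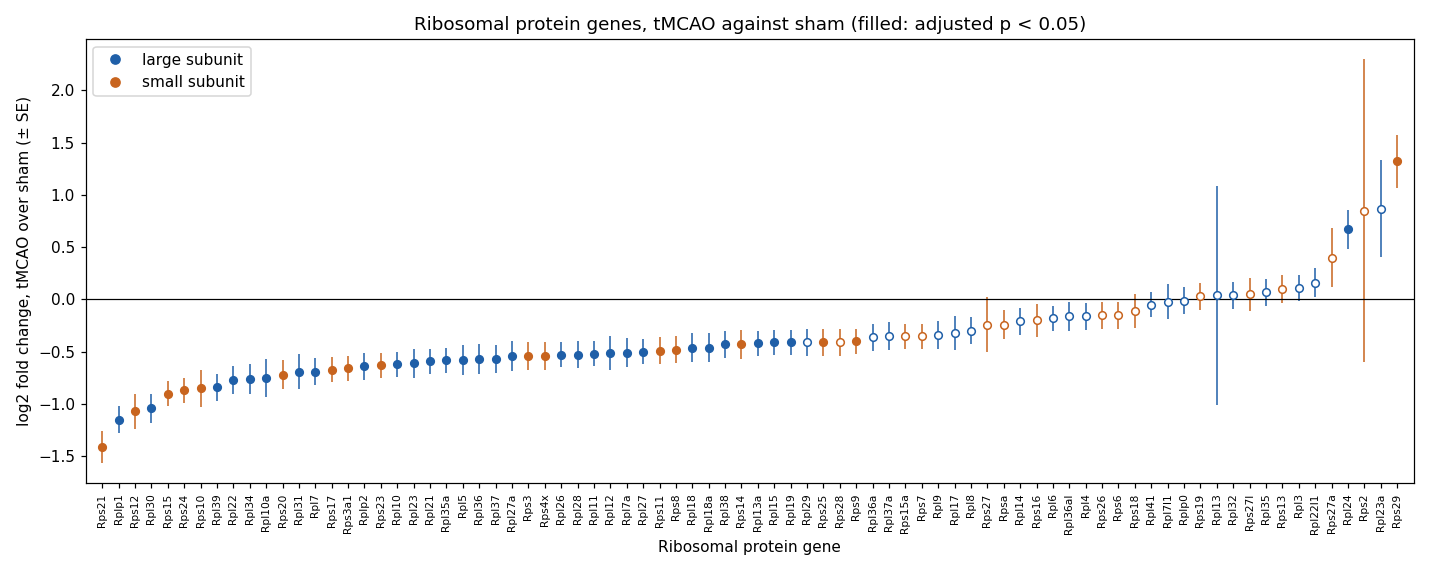
log2 fold change of the tested genes (1 of the 81 is not shown), tMCAO over sham, with its standard error, ordered from the strongest decrease to the strongest increase. Filled points passed the test; 45 of them lie below 0 and 2 above, and Rpl13 and Rps2 have the widest errors.

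Rps21, a protein of the outer face of the small subunit, showed the strongest decrease of the 81 tested genes. It had 2156, 1776 and 2465 CPM in sham and 1006, 880 and 729 CPM in tMCAO. All tMCAO values were below the lowest sham value, that of sham 2. The log2 fold change was -1.41 ± 0.15 (SE), a 2.66-fold decrease (adjusted p = 6.83e-05, edgeR's quasi-likelihood test).

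Proteins of the P stalk, the flexible arm of the large subunit that recruits translation factors, differed in their calls. Rplp1, a tip protein of the stalk, had 6020, 5267 and 6731 CPM in sham and 3396, 2901 and 2549 CPM in tMCAO, a log2 fold change of -1.15 ± 0.13 (adjusted p = 0.000119). Its partner at the tip, Rplp2, had 2892, 2334 and 3249 CPM in sham and 2092, 2008 and 1777 CPM in tMCAO, a log2 fold change of -0.64 ± 0.13 (adjusted p = 0.0056). Groups were separate for both tip proteins. Rplp0, which anchors the tip proteins on the ribosome, had 1500, 1381 and 1725 CPM in sham and 1654, 1607 and 1679 CPM in tMCAO, and the groups overlapped (log2 fold change -0.01 ± 0.13, adjusted p = 0.962). Rpl12 of the stalk base fell by 0.51 on the log2 scale (adjusted p = 0.0384), a call that was lost in 9 of 18 alternatives. In all, 3 of the 4 stalk genes were lower.

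On the beak of the small subunit, the protrusion of its head, 2 of 3 genes were lower (66.7%, against 55.6% of the tested ribosomal protein genes). Rps12 had 2300, 1797 and 2787 CPM in sham and 1290, 1402 and 887 CPM in tMCAO, with separate groups and a log2 fold change of -1.07 ± 0.17 (adjusted p = 0.00143). Rps10, in which inherited mutations cause Diamond-Blackfan anaemia, had 1494, 1760 and 1734 CPM in sham and 1280, 1060 and 692 CPM in tMCAO (log2 fold change -0.85 ± 0.18, adjusted p = 0.00726). For both beak genes the lowest value was that of tMCAO 3. Rps27a, made as a fusion with ubiquitin, had 685, 478 and 560 CPM in sham and 532, 812 and 1099 CPM in tMCAO. These groups overlapped and the gene was not called (log2 fold change 0.40 ± 0.28, adjusted p = 0.361), but it was called higher without tMCAO 1 (0.67, adjusted p = 0.0376). The library left out there held its lowest tMCAO value, so that p-value cannot decide whether Rps27a changed.

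Rpl30, a protein at the interface of the subunits, had 1760, 1526 and 1845 CPM in sham and 976, 993 and 751 CPM in tMCAO, a 2.05-fold decrease with separate groups. Rps15, close to the decoding site, fell by 0.90 on the log2 scale, from 2141 ± 181 to 1248 ± 66.6 CPM (SD, n = 3 each). Rps24, also mutated in Diamond-Blackfan anaemia, fell by 0.87, from 2978 ± 255 to 1774 ± 198 CPM. For Rps15, Rps24 and Rpl30 the adjusted p was 0.000468, 0.000573 and 0.000314, and in none of the 3 did the groups overlap.

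Around the tunnel through which the new protein leaves the large subunit, 1 of 3 genes was lower (33.3%, against 55.6% of the tested ribosomal protein genes). Rpl39, a short protein of the tunnel wall, had 3421, 2805 and 3394 CPM in sham and 2140, 1959 and 1746 CPM in tMCAO (log2 fold change -0.84 ± 0.13, adjusted p = 0.000761). Rpl4 and Rpl17, which form the narrow part of the tunnel, were not called, at -0.16 ± 0.13 (adjusted p = 0.43) and -0.32 ± 0.16 (adjusted p = 0.185). Both genes that bind the small ribosomal RNA of the large subunit and, outside the ribosome, the p53 regulator MDM2 were lower. Rpl5 went from 490, 490 and 519 CPM in sham to 382, 345 and 363 CPM in tMCAO, and Rpl11 from 3097, 2731 and 2727 CPM to 2297, 2188 and 2017 CPM. Their log2 fold changes were -0.58 ± 0.14 (adjusted p = 0.0123) and -0.52 ± 0.12 (adjusted p = 0.0113), and neither gene's groups overlapped. The call of Rpl5 was lost without tMCAO 2 (adjusted p = 0.0508), and that of Rpl11 without sham 1 (0.0715) and without both sham 1 and tMCAO 3 (0.0529).

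Along the path of the mRNA through the small subunit, 1 of 2 entry genes and 1 of 4 exit genes were lower. At the entry, Rps3 fell by 0.54 on the log2 scale (adjusted p = 0.0112, but 0.0588 without sham 3), and Rps2 is described with the uneven genes. At the exit, Rps14 fell by 0.43 (adjusted p = 0.0447, lost in 8 of 18 alternatives). Also at the exit, Rps26 and Rps28 were not called, with log2 fold changes of -0.15 ± 0.13 and -0.41 ± 0.13 and adjusted p of 0.44 and 0.0503. Rps28 was called lower in 6 of 18 alternatives, among them the upper quartile scaling (adjusted p = 0.0324), limma voom (0.0453) and the analysis without tMCAO 3 (0.00806). Leaving out tMCAO 3 removes the highest tMCAO value of Rps28, so that p-value cannot decide whether it changed. Rps6, the substrate of the kinases downstream of mTOR, was not called either, with 2484, 2211 and 2392 CPM in sham and 2137, 2455 and 2335 CPM in tMCAO (-0.15 ± 0.13, adjusted p = 0.453). Nor was Rpsa, known also as the laminin receptor, at -0.24 ± 0.14 (adjusted p = 0.253).

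The genes with the highest mean CPM in each subunit, not scaled for length, included some called lower and some not called. Besides Rplp1, the decoding-centre protein Rps23 went from 6085, 5161 and 5163 CPM in sham to 3800, 4195 and 3541 CPM in tMCAO (log2 fold change -0.63 ± 0.12, adjusted p = 0.00372). Rpl13a, which can also act outside the ribosome as a repressor of inflammatory mRNAs in myeloid cells, fell by 0.42 (adjusted p = 0.0247), and Rps9 fell by 0.40 (adjusted p = 0.0344). Their calls were lost in 9 and 10 of 18 alternatives. Rpl41, the shortest ribosomal protein, had 4675, 4208 and 4417 CPM in sham and 4550, 4381 and 4924 CPM in tMCAO, with overlapping groups (-0.05 ± 0.12, adjusted p = 0.799).

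**Figure D3:**
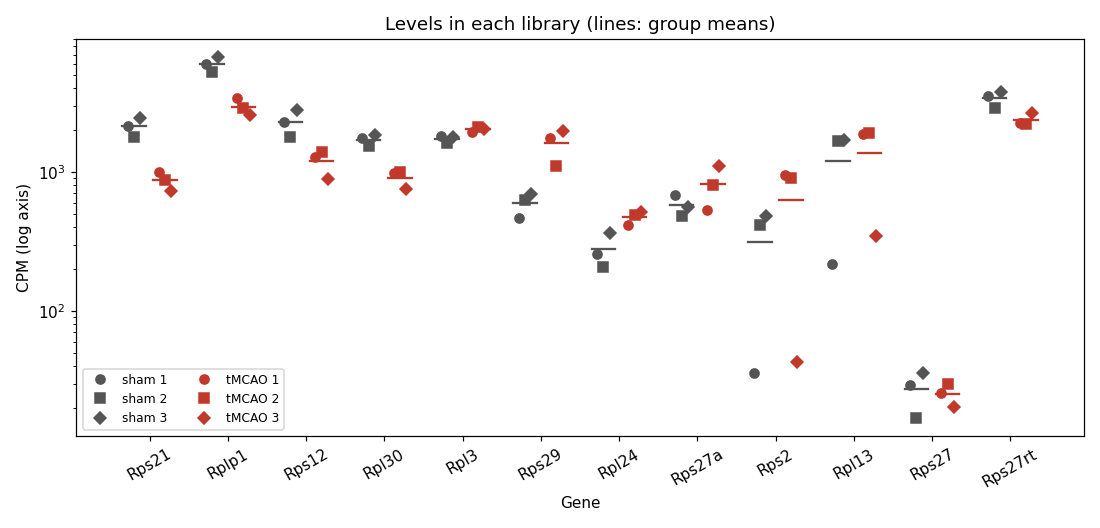
CPM in each library on a log axis for 11 ribosomal protein genes and the retrogene Rps27rt, with sham in grey, tMCAO in red and lines at the group means. Rps21, Rplp1, Rps12 and Rpl30 have separate groups with tMCAO lower, Rps29 and Rpl24 with tMCAO higher, and sham 1 and tMCAO 3 lie far below the other libraries for Rps2 and Rpl13.

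Against this, Rps29 rose. This zinc-binding protein of the small subunit head, another Diamond-Blackfan anaemia gene, had 467, 631 and 693 CPM in sham and 1769, 1097 and 1978 CPM in tMCAO. Every tMCAO library was above every sham library. The log2 fold change was 1.32 ± 0.25, a 2.51-fold increase (adjusted p = 0.00877), and the call held in all 18 alternatives. Rpl24, which forms a bridge between the subunits, had 257, 208 and 365 CPM in sham and 416, 488 and 518 CPM in tMCAO, again with separate groups. Its log2 fold change was 0.67 ± 0.19 (adjusted p = 0.0306). That call was lost in 7 of 18 alternatives, with adjusted p of 0.139 without sham 1, 0.108 without sham 2, 0.0749 without tMCAO 2 and 0.0602 without tMCAO 3.

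Paralogs, the close relatives of some ribosomal protein genes, were examined beside the genes they resemble. Of the 8 paralogs listed, Rps4l was not in the table used here. Rpl10l had no count in any library, which allows up to 3 counts (1.15 to 1.62 CPM) per library, and Rpl39l and Rpl3l, with at most 5.91 CPM and 1.48 CPM in a library, had too few counts to be tested. None of the 4 tested paralogs was called, and their log2 fold changes ran from -0.16 to 0.16 with a median of 0.02. Rpl22l1, a paralog known to be held down by Rpl22, had 324, 287 and 316 CPM in sham and 373, 372 and 373 CPM in tMCAO, higher in every tMCAO library, with a log2 fold change of 0.16 ± 0.14 (adjusted p = 0.479). Rpl22 itself fell from 1136 ± 104 to 725 ± 72 CPM (SD, n = 3 each; log2 fold change -0.77 ± 0.13, adjusted p = 0.0018).

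Rpl7l1 was at -0.02 ± 0.17 while Rpl7 fell by 0.69. Rpl36al was at -0.16 ± 0.14 and Rpl36a, also not called, at -0.36 ± 0.13. Rpl36a was called lower in 2 of 18 alternatives, with the upper quartile and without tMCAO 3, the library with its highest tMCAO value. Rps27l, a target of p53, was at 0.05 ± 0.16. The adjusted p of Rpl7l1, Rpl36al and Rps27l was 0.95, 0.48 and 0.856. Whether a paralog's change differed from that of its parent gene was not tested. Among the parents, Rpl10 fell by 0.62 (adjusted p = 0.00345) and Rps4x by 0.54 (adjusted p = 0.0105, but 0.0517 without sham 1 and 0.0514 without sham 3), whereas Rpl3, a protein near the catalytic centre, was at 0.11 ± 0.12 (adjusted p = 0.599). The coding sequences of these paralogs were 54.9% (Rpl7l1) to 87.9% (Rpl36al) identical to those of their parents.

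Rps27 needs a word on read assignment. Its row held 17.0 to 35.6 CPM per library. Rps27rt, a retrogene (an intronless copy made by reverse transcription of the mRNA), has a row of its own outside the naming rule and held 3531, 2874 and 3785 CPM in sham and 2262, 2198 and 2652 CPM in tMCAO. In the GENCODE M21 annotation the coding sequences of the 2 genes are both 255 bases long and differ at 0 positions. The sequence is shown because reads from it cannot be assigned to one of the genes by their coding bases, with the start and stop codons in capitals.
Rps27 and Rps27rt: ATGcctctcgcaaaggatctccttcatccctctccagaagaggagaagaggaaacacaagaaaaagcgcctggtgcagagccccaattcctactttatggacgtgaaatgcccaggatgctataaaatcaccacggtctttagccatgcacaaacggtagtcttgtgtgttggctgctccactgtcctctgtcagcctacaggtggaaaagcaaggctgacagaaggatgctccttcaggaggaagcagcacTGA
Between 0.59% and 1.33% of the CPM of the pair stood on the Rps27 row. Taken alone, that row was not called (log2 fold change -0.24 ± 0.26, adjusted p = 0.578). The sum of both rows fell from 3424 ± 480 to 2396 ± 241 CPM (SD, n = 3 each), a log2 fold change of -0.62 ± 0.14 (adjusted p = 0.00984). The Rps27rt row by itself was lower too (-0.63 ± 0.14, adjusted p = 0.00968). Of all 16 rows found to be near-identical copies of a ribosomal protein transcript, 11 held counts, and adding each to its parent gave 46 genes called lower.

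Rps2 and Rpl13 were uneven within both groups. Rps2 had 35.8, 417 and 483 CPM in sham and 948, 906 and 42.6 CPM in tMCAO, and Rpl13 had 218, 1657 and 1709 CPM in sham and 1872, 1894 and 345 CPM in tMCAO. For both, sham 1 and tMCAO 3 were more than 3 times lower than each of the other libraries, a pattern that 2 of 81 ribosomal protein genes and 86 of all 13127 genes and loci tested showed. Neither was called, with log2 fold changes of 0.85 ± 1.45 for Rps2 (adjusted p = 0.741) and 0.04 ± 1.05 for Rpl13 (adjusted p = 0.988). Without sham 1 and tMCAO 3, Rps2 was at 0.86 (adjusted p = 0.00543) and Rpl13 at -0.02 (adjusted p = 0.941). The libraries left out there are the ones in which these genes were lowest, so that p-value cannot decide whether Rps2 changed. With those libraries left out, 34 ribosomal protein genes were called lower. Rpl23a was variable in another way, with 117, 38.4 and 80.7 CPM in sham and 168, 96.5 and 197 CPM in tMCAO, and was not called (0.87 ± 0.46, adjusted p = 0.251); it is named for its spread, after its values were seen.

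The spread within a group was small for most genes. The median coefficient of variation was 8.82% in sham and 6.48% in tMCAO, and 2 of 81 genes, Rps2 and Rpl13, exceeded 50% in a group. Of the 81 genes, 67 had their lowest sham value in sham 2 and 49 their highest in sham 3. In tMCAO, 42 had their lowest value in tMCAO 3 and 41 their highest in tMCAO 1.

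**Figure D4:**
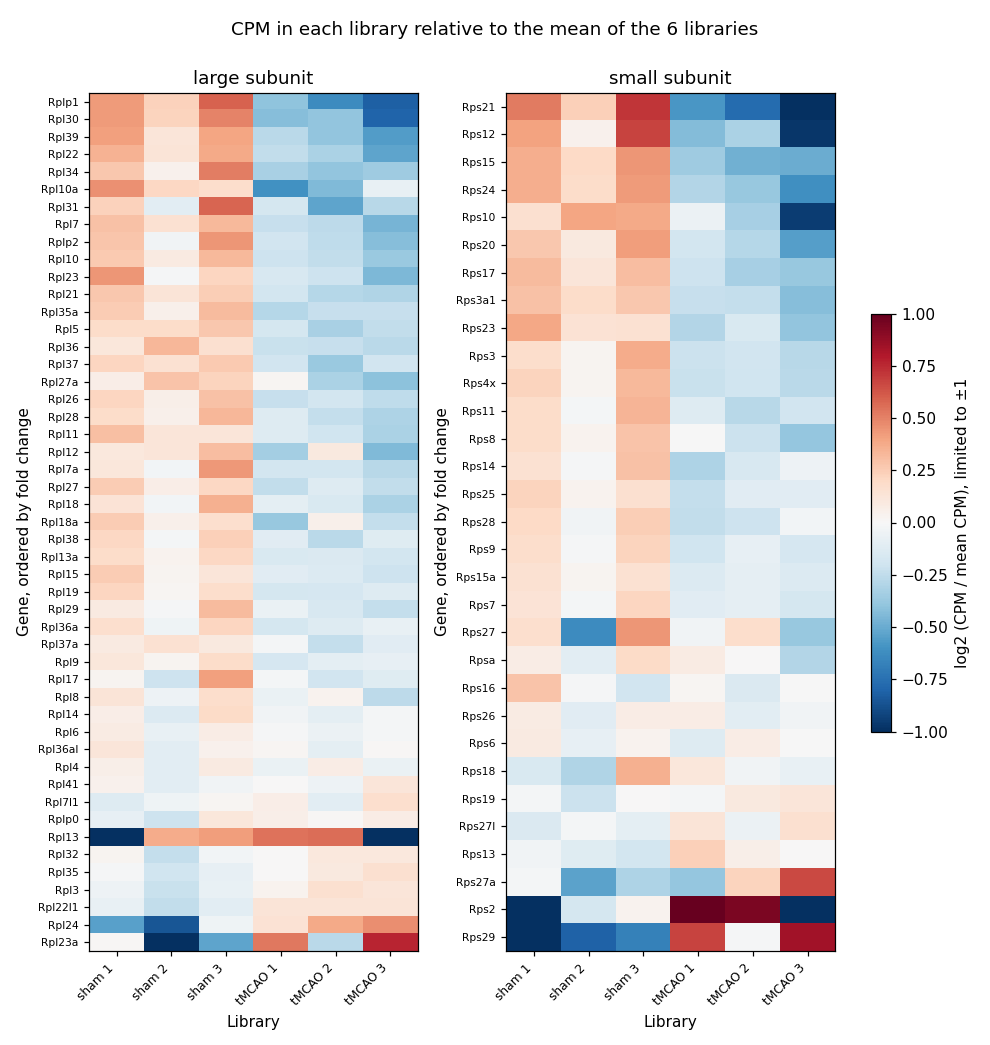
CPM of the tested genes (1 of the 81 is not shown) in each library relative to its mean over the 6 libraries, as log2 and limited to ±1, with large subunit genes left and small subunit genes right, ordered by fold change. Most rows are red in the sham columns and blue in the tMCAO columns, and sham 2 is the palest sham column for most genes.

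A second comparison asked which genes departed from the family as a whole. Here each library was scaled to its summed ribosomal protein counts, so that a gene that fell as much as the family came out at 0. Lower on this scale were 7 of 81 genes (8.64%) and higher were 12 (14.8%), in edgeR's quasi-likelihood test adjusted over all tested. Over all 13127 tested, 3.88% were lower and 27.6% higher, since the family itself was lower and the median of all tested was 0.43 on this scale. The 7 lower genes were Rps21, Rplp1, Rpl30, Rps15, Rps24, Rps12 and Rpl39. Relative to the family Rps21 fell by 0.97 on the log2 scale (adjusted p = 0.000358), Rplp1 by 0.71 (adjusted p = 0.00108), Rpl30 by 0.60 (adjusted p = 0.00471) and Rps15 by 0.46 (adjusted p = 0.00911).

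The 12 genes higher than the family were led by Rps29 (log2 fold change 1.75 ± 0.25, adjusted p = 0.00181) and Rpl24 (1.11 ± 0.18, adjusted p = 0.000872). Rpl3 was at 0.54 ± 0.11 (adjusted p = 0.00459) and Rpl22l1 at 0.59 ± 0.13 (adjusted p = 0.00606). The others were Rplp0, Rpl32, Rpl35, Rpl41, Rps13, Rps19, Rps27a and Rps27l. With the exception of Rps29 and Rpl24, these were genes that were not called on the scale of the whole library. Members of the P stalk thus stood on both sides, Rplp1 below the family and Rplp0 above it at 0.42 ± 0.12 (adjusted p = 0.0169).

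**Figure D5:**
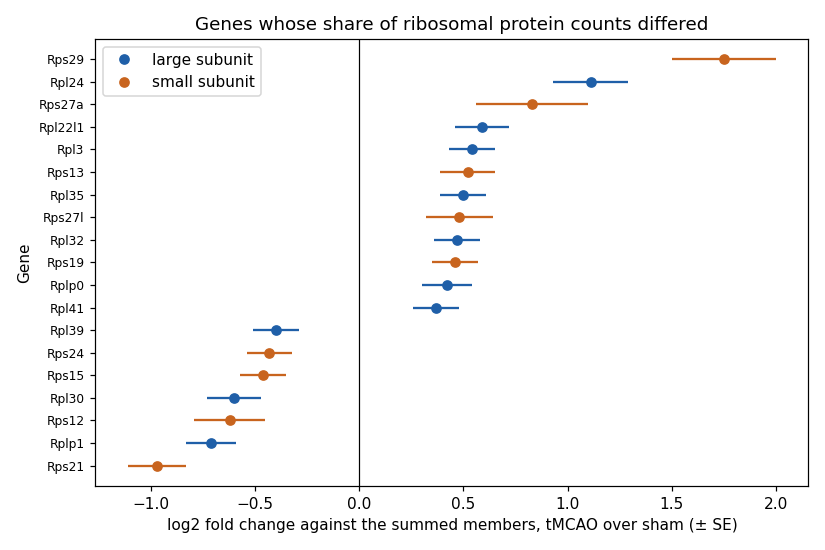
log2 fold change against the summed ribosomal protein counts, tMCAO over sham, with standard errors, for the 19 genes that passed the test on this scale. From bottom to top, 7 genes lie below 0, with Rps21 lowest, and 12 above, with Rps29 highest.

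Gene length was set beside the fold changes. The coding sequences of the tested genes had a median length of 459 bases (141 to 1260), against 1299 bases for 8512 known genes tested. Across the 81 genes the correlation of the log2 fold change with log2 coding length was r = 0.0908 (Spearman's rho 0.184), and across the known genes r = 0.111 (rho 0.155). With the mean log2 level it was r = -0.344 (rho -0.242). These are descriptions across genes of the same libraries, which are not independent replicates.

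The starts of the genes were compared in the RefSeq promoter windows of GRCm38.p6, from 250 bases before to 50 bases after the annotated start, which were matched by symbol for 64 of the 84 genes. The windows printed here run from 30 bases before the start to 20 after it, on the transcribed strand, 5′ to 3′. Capitals mark the longest run of C and T that lies between 10 bases before and 20 bases after the start, where a TOP tract would be. They are examples of genes that fell and genes that did not, and no rule chose them. Most of those shown have runs of at least 8 bases, so they do not represent the 64 genes.
Rps21 (lower, chr2:180257349-180257398, plus strand): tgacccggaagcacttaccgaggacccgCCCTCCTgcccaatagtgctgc
Rps12 (lower, chr10:23787190-23787239, minus strand): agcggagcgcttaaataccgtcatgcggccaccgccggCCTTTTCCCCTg
Rps24 (lower, chr14:24490648-24490697, plus strand): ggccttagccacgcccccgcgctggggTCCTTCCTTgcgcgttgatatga
Rps10 (lower, chr17:27635225-27635274, minus strand): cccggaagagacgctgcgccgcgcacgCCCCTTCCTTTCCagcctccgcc
Rpl39 (lower, chrX:37085203-37085252, minus strand): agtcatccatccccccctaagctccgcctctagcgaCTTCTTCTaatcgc
Rpl27a (lower, chr7:109519165-109519214, plus strand): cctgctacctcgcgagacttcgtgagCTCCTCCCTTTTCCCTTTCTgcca
Rps6 (not called, chr4:86857348-86857397, minus strand): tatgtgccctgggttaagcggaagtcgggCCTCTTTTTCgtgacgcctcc
Rpl35 (not called, chr2:39005112-39005161, minus strand): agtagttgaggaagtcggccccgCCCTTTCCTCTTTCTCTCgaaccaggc
Rpl22l1 (not called, chr3:28805478-28805527, plus strand): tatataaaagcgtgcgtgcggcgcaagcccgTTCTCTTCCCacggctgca
Rps18 (not called, chr17:33955646-33955695, minus strand): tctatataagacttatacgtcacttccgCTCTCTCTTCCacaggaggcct
Rpl24 (higher, chr16:55966245-55966294, plus strand): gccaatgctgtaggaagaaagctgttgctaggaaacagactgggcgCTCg
Among the genes shown, Rpl27a and Rps10 were lower and have runs of 20 and 13 bases, and Rpl35 and Rps18 were not called and have runs of 18 and 11 bases. Rps21, with the strongest decrease, has a run of 7 bases, and Rpl24, which was higher, one of 3. A run of at least 8 bases was present in 32.8% of the 64 genes and in 11.2% of all 27025 promoters. It was present in 38.2% of the 34 matched genes called lower and in 26.7% of the 30 others, 3 of which were not tested, and the median log2 fold change was -0.42 with it and -0.41 without it.

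Short motifs were searched on both strands of the whole windows. The ETS-type motif CCGGAAG was in 39.1% of the ribosomal protein promoters and 9.12% of all promoters, the YY1-type motif AAGATGG in 14.1% and 6.48%, and GGGCGG, the core of the GC box, in 60.9% and 35.9%. TATAA, the core of the TATA box, was in 26.6% of the ribosomal protein promoters and 25.5% of all. Of the promoters of genes called lower, 4 of 34 (11.8%) held TATAA, against 13 of 30 (43.3%) of the others. The median log2 fold change was -0.22 in the 16 tested genes with TATAA and -0.51 in the 45 without it. AAGATGG was in 8.82% of the promoters of genes called lower (3 of 34) and in 6 of 30 of the others, with medians of -0.35 in the 9 tested genes with it and -0.44 in the 52 without it. For CCGGAAG the medians were -0.41 with it and -0.42 without it, and for GGGCGG -0.44 and -0.41. These matches describe letters in the windows and were given no test.

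Ribosomal proteins with other names and the genes around them were described in the same way. Neither of the 2 ribosomal proteins outside the naming rule given here was called. Fau, made as a fusion with a ubiquitin-like protein, was at 0.34 ± 0.18 (adjusted p = 0.213), and Rack1, a signalling scaffold on the small subunit, at -0.45 ± 0.17 (adjusted p = 0.0846). Fau was called higher without a filter on low counts (0.40, adjusted p = 0.0474), and Rack1 lower with known genes only (-0.51, adjusted p = 0.046). Of 18 translation factors and other genes whose mRNAs carry TOP tracts or are regulated like them, 1 was lower and 1 higher (5.56% each, against 8.96% and 9.17% over all tested), and the median log2 fold change was 0.05. The elongation factor subunit Eef1b2 fell from 769 ± 64.8 to 542 ± 79.9 CPM (-0.63 ± 0.14, adjusted p = 0.0089), a call lost without sham 1 (0.0571) and without both sham 1 and tMCAO 3 (0.0562). The elongation factor Eef2, which moves the ribosome along the mRNA, rose from 887 ± 148 to 1511 ± 120 CPM (0.65 ± 0.15, adjusted p = 0.00995), a call lost without sham 3 (0.51, adjusted p = 0.0608). Eef1a1, which brings transfer RNA to the ribosome, was at -0.37 ± 0.12 (adjusted p = 0.0556) and was called lower in 3 of 18 alternatives. Tpt1, named after its values were seen, had 328, 4559 and 4399 CPM in sham and 2396, 2074 and 217 CPM in tMCAO. Like Rps2 and Rpl13 it was low in sham 1 and tMCAO 3, and it was not called (-1.15 ± 1.35, adjusted p = 0.623). Without those libraries it was at -1.19 (adjusted p = 0.000732), a comparison that leaves out the libraries with its own low values.

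None of the 5 tested of 7 chaperones dedicated to ribosomal proteins was called. Grwd1, a chaperone of Rpl3, was at -0.62 ± 0.39, Tsr2, a chaperone of Rps26, at -0.59 ± 0.42, and Bccip, a chaperone of Rpl23, at -0.10 ± 0.18 (adjusted p 0.297, 0.372 and 0.728). A further list held genes of the mTOR pathway that controls TOP mRNAs, with Myc added to them. Of its 14 tested genes, 2 were higher (14.3%, against 9.17% of all tested) and 0 lower (against 8.96%), and Myc was 1 of the 2. Larp1, which binds TOP mRNAs, had 10.5, 9.12 and 12.6 CPM in sham and 20.2, 23.7 and 20.2 CPM in tMCAO (0.87 ± 0.26, adjusted p = 0.0318). Myc, a transcriptional activator of ribosomal protein genes, had 37.5, 26.2 and 43.2 CPM in sham and 47.8, 87.8 and 104 CPM in tMCAO (1.06 ± 0.30, adjusted p = 0.0368). Groups were separate for both, but the calls were lost in 7 and 9 of 18 alternatives, among them every alternative that left out a sham library. Mtor itself was at 0.98 ± 0.39 (adjusted p = 0.102). Of 9 host genes of small nucleolar RNAs, only Rack1 was in the table used here.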

How the data were processed

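RNA from microglia of WT mice was measured in 3 sham and 3 tMCAO libraries, each from 30 mice. The authors deposited raw read counts per gene and library, and beside them CPM, which per the file headers and the values are the counts divided by the library totals; CPM computed here differed from the deposited CPM by at most 4.87e-06. The aligner minimap2 is named, with no version, per the submitters' processing notes. The sources used here do not state the build, annotation, counting rule or strand setting. Reads of overlapping genes or near-identical copies could therefore have been split. Of 38219 lines, 12 without values were left out.

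Counts were tested with edgeR 4.0.16 (R 4.3.3). After filterByExpr (counts of at least 10, 15 in total) 13127 genes and loci remained, TMM set the scaling, and glmQLFit (robust) and glmQLFTest compared the groups with no other term. A gene was called when its Benjamini-Hochberg adjusted p, over everything tested, was under 0.05. The SE is the absolute log2 fold change divided by the square root of F, and fold changes are tMCAO over sham. The biological coefficient of variation was 22.6%. In the comparison within the family, library sizes were the summed counts of the 84 genes. The steps were tested on simulated data with known changes. Near-identical copies were found with BLAST 2.17.0 against GENCODE M21 transcripts (identity at least 90% over at least 250 bases and 80% of the row's transcript); promoter windows are RefSeq's. A count of 0 allows up to 3 counts.

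The genes named are the 8 lower and 8 higher calls with the smallest p, the 3 genes of each subunit with the highest mean CPM, the groups described by their place on the ribosome, the paralogs and their parents, Rpsa, Rps6, the 4 lower and 4 higher calls with the smallest p within the family, and up to 3 genes from each other list. Rpl13, Rps27rt, Tpt1 and Rpl23a fall outside these rules and were added after their values were seen. Also outside them are Rpl27a, Rps18 and Rpl35, whose promoter windows are printed as examples. The same holds for Rpl32, Rps13 and Rps19, which are listed only as higher within the family. The genes, lists and tests were chosen with earlier results of these data known. Alternatives were other scalings (RLE, upper quartile, library totals, TMM without the family and the mitochondrial genome), no filter, known genes only, DESeq2 1.42.0, limma voom (limma 3.58.1), a replicate block, copies added to their parents, and each library left out in turn. Values of 2 genes on the lists are not reported here.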

Additional observations from a re-analysis of the deposited data

How the results depend on the processing

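The count of 45 ribosomal protein genes called lower was 45 with RLE scaling, 52 with the upper quartile, 31 with library totals only, 48 with TMM without the family and the mitochondrial genome, 39 without a filter, 50 with known genes only, 35 with DESeq2, 49 with limma voom, and 46 with pseudogene or near-identical copies added (the latter chosen after seeing the data). With a replicate block it was 33, with 3 genes higher, and 2 higher in the large subunit; over all genes the block gave 828 lower and 834 higher. The samples share only a number: deviations of same-numbered libraries correlated at r = -0.21, 0.0186 and -0.174, and no library correlated best with its own number. Leaving out 1 library gave 25 to 49 genes lower and 1 to 3 higher, in the large subunit 15 to 30 lower and 0 to 1 higher, in the small subunit 9 to 19 lower and 1 to 2 higher, in the other lists 0 to 1 lower and 0 to 3 higher, and over all genes 554 to 1167 lower and 700 to 1423 higher. Against 2 genes higher, the upper quartile and known genes only each gave 1 (large subunit 0), and no filter gave 4 (2 in each subunit). Against 1 lower and 3 higher in the other lists, the upper quartile gave 2 lower, limma voom 2 lower, known genes only 3 lower and no filter 5 higher. Over all genes no filter gave 1986 lower and 2053 higher, and known genes only 622 lower. Without sham 1 and tMCAO 3 together, 652 genes in all were lower, the large subunit had 0 higher, the small subunit 2 higher, the other lists 1 higher, and 4 genes were lower within the family. Calls were 50.6% higher in the main analysis, 63.2% with library totals, 42.2% with the upper quartile and 58.3% with known genes only, and the median of all genes moved to 0.11 with library totals and -0.14 without a filter; the median of the ribosomal protein genes stayed between -0.49 and -0.31. The difference in the ratio of large to small subunit counts, 0.0018, was -0.0195 without the most abundant gene of the family and -0.00337 to 0.00999 with 1 library left out. The difference in share ran from -3.43 to -2.38 points with 1 library left out. Among the named genes, only some that were not called changed direction. Rpl41 was at 0.05 with library totals and 0.01 without a filter, Rplp0 at 0.09 and 0.06, and Rpl7l1 at 0.09 and 0.05. Bccip was at 0.01 with library totals, and with the upper quartile Rps27l was at -0.02 and Rpl13 at -0.04. Rps27l was at 0.00 with known genes only. With 1 library, or sham 1 and tMCAO 3, left out, Rpl41 ran from -0.13 to 0.02, Rplp0 from -0.11 to 0.05, Rpl7l1 from -0.19 to 0.09, Bccip from -0.23 to 0.04, Rps27l from -0.08 to 0.16 and Rpl13 from -0.47 to 0.50. The cause was not tested.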
